A study of Homo sapiens with 14 samples.

Results

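Bidirectional promoters of protein-coding genes were examined in TC-32 cells as the places where 2 genes on opposite strands start close together and are transcribed away from each other. A pair of genes was taken when the 2 gene starts in GENCODE release 44 (hg38, chromosomes 1 to 22 and X) lay 0 to 1000 bp apart, and its region was the interval between the starts with 500 bp on either side. This gave 887 pairs, which held 1710 of the 19970 protein-coding genes, or 8.56%. The other 18260 protein-coding starts, each with 500 bp on either side, served as the comparison. A gene's start was the outermost one of its record, so starts of single transcripts may give other pairs.

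TC-32 is an established Ewing sarcoma line, and all cells were untreated and are titled WT in the labels, so no group differs in genotype or treatment. Chromatin was mapped by CUT&RUN, in which a nuclease tethered to an antibody cuts out the DNA around its target for sequencing. The 14 libraries used antibodies to FLI1 (replicates 1 and 2 of set A and of set B), H3K27ac (set A, 2 replicates), H3K9me3 and H3K27me3 (set B, 2 replicates each), and IgG as the control (2 in each set). The labels do not say what sets A and B are or whether replicates came from separate cultures, so the spread between libraries may be technical. Libraries are called here by set and number, so that FLI1 A1 is the FLI1 library of set A, replicate 1. A promoter was said to have a peak when a peak of that library's list shared at least 1 base with its region.

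Closely spaced divergent gene pairs are a regular feature of the human genome. Their promoters tend to be rich in CpG dinucleotides and poor in TATA boxes, and the genes often serve general functions such as DNA repair, mitochondrial function and chromatin assembly. Binding words of the ETS family, which holds FLI1 and also GABPA, a widespread activator of such promoters, are common there. The fusion protein of Ewing sarcoma, EWSR1::FLI1, keeps the ETS DNA-binding domain of FLI1, and at GGAA repeats away from promoters it is known to set up enhancers. H3K27ac marks active promoters and enhancers, H3K27me3 marks genes held silent by Polycomb, and H3K9me3 marks heterochromatin.

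The sequences that recur in these results are the ETS word CCGGAAGT and the shorter core CCGGAA, on either strand. The first set is shown because these 3 pairs were among the 5 with the highest FLI1 fold percentile, averaged over the 4 lists, and held the full word. Each site is 30 bases of hg38, plus strand, 5′ to 3′, with the word in capitals.
ARHGAP1/ZNF408 (chr11:46700668-46700697): acctccaacccACTTCCGGccccaaacatg
ARHGAP1/ZNF408 (chr11:46701005-46701034): agaggaagctcACTTCCGGcgtagggaggc
MRPL27/EME1 (chr17:50373174-50373203): ttcgatcactcACTTCCGGtctcgaaaagt
MRPL27/EME1 (chr17:50373218-50373247): tcaggagatctACTTCCGGgccctgcgtgg
PPIL3/NIF3L1 (chr2:200889349-200889378): ccgacgcgggaCCGGAAGTgacgcagagaa
In ARHGAP1/ZNF408 the words were centred 64 bp upstream of the ARHGAP1 start and 10 bp upstream of the ZNF408 start. In MRPL27/EME1 they lay 18 bp inside MRPL27 and 13 bp inside EME1, each counted from the gene's start. In PPIL3/NIF3L1 the word lay 37 bp inside NIF3L1.

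The second set is the whole interval between the 2 starts of 5 pairs that show how different these promoters were, again from the plus strand of hg38 and with the core CCGGAA (or TTCCGG, its reverse) in capitals. All 5 intervals are intergenic and lie upstream of both genes. ZNF558/MBD3L1 had the highest mean percentile of FLI1 fold over the 4 lists, TMEM258/FEN1 had strong FLI1 and H3K27ac together, HES2/ESPN was covered by H3K27me3, H2AC14/H2BC14 held H3K9me3, and COL4A4/COL4A3 had no peak in any list.
ZNF558/MBD3L1 (chr19:8832315-8832376): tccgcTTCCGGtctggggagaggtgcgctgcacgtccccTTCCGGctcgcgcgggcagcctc
TMEM258/FEN1 (chr11:61792803-61792910): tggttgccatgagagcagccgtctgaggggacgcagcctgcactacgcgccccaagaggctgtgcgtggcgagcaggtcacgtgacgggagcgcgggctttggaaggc
HES2/ESPN (chr1:6424671-6424775): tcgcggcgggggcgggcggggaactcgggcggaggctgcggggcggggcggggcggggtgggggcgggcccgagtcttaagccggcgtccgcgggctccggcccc
H2AC14/H2BC14 (chr6:27814778-27815021): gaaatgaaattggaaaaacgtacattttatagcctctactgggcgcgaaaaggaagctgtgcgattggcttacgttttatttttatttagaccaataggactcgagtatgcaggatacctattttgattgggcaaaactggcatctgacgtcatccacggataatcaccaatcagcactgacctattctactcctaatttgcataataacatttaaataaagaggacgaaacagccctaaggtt
COL4A4/COL4A3 (chr2:227164454-227164623): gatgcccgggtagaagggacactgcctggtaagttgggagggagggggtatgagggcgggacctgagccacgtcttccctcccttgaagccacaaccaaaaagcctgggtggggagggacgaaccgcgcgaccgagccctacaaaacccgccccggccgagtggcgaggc
The interval of ZNF558/MBD3L1 held the core 2 times, and none of the other 4 intervals held it. Peaks were scored over the whole region, with 500 bp on either side. There the core occurred 4 times in ZNF558/MBD3L1, 2 times in TMEM258/FEN1 and 1 time in COL4A4/COL4A3, which had no FLI1 peak. The regions of HES2/ESPN and H2AC14/H2BC14 did not hold it. H2AC14/H2BC14 joins genes of histones H2A and H2B, and FEN1 is the flap endonuclease of DNA replication.

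The starts of the 887 pairs were 1 to 995 bp apart, with a median of 132 bp, and 717 pairs (80.8%) were at most 300 bp apart. The pairs share members: 63 genes belonged to more than 1 pair, 80 pairs held a readthrough gene, and overlapping regions merged into 824 distinct ones. Windows of 1001 bp around the midpoints had a median CpG observed/expected ratio of 0.784, against 0.668 around other starts. A ratio of at least 0.6 was found in 91.7% of pairs and 57.3% of other starts. The ETS word CCGGAAGT occurred in 18.5% of the pairs' windows and in 6.31% of the windows at other starts. The core CCGGAA, which lies inside that word, occurred in 58.3% and 35.3%. Among words of other factors, searched on both strands, GCATGCGC (the core bound by NRF1) occurred in 12.1% of pairs and 5.51% of other starts, AAGATGGC (YY1) in 11.6% and 6.69%, and the GC box GGGCGG in 91.7% and 70.3%. The CCAAT box was about as common in both, at 67.1% and 65.6%, and TATAAA was less common in pairs, at 17.2% against 27.9%. A run of at least 4 GGAA units, the repeat type that the fusion is known to occupy, was found in 3 pairs (0.338%) and 0.170% of other starts. A word match is a description of the letters and not evidence of a bound factor.

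FLI1 peaks were found at most bidirectional promoters. They covered 672 pairs (75.8%) in A1, 673 (75.9%) in A2, 756 (85.2%) in B1 and 733 (82.6%) in B2. At other starts the shares were 35.1% in A1, 34.6% in A2, 43.9% in B1 and 40.6% in B2. Regions of pairs had a median width of 1133 bp against 1001 bp at other starts, and widening the latter to match left the difference at 41.0 points. The lowest library at pairs was above the highest at other starts. The mean was 79.9% ± 4.80 (SD, n = 4) at pairs and 38.5% ± 4.50 at other starts. The difference within a library was 41.3 ± 0.548 percentage points, positive in 4 of 4 libraries. The two-sided exact sign-flip permutation test over the 4 libraries gave p = 0.13, the smallest it can give, and 0.156 after Benjamini-Hochberg adjustment over 5 tests. With other starts weighted to the CpG ratios of the paired starts, and each start taken alone, the shares were 79.2% ± 4.74 and 55.2% ± 6.56, a difference of 24.0 ± 1.90 points. Against other starts with a divergent lncRNA, an alternative chosen after seeing the data, the difference was 15.8 points. Without other starts that lay within 1000 bp of another protein-coding start, it was 44.1 points.

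**Figure D1:**
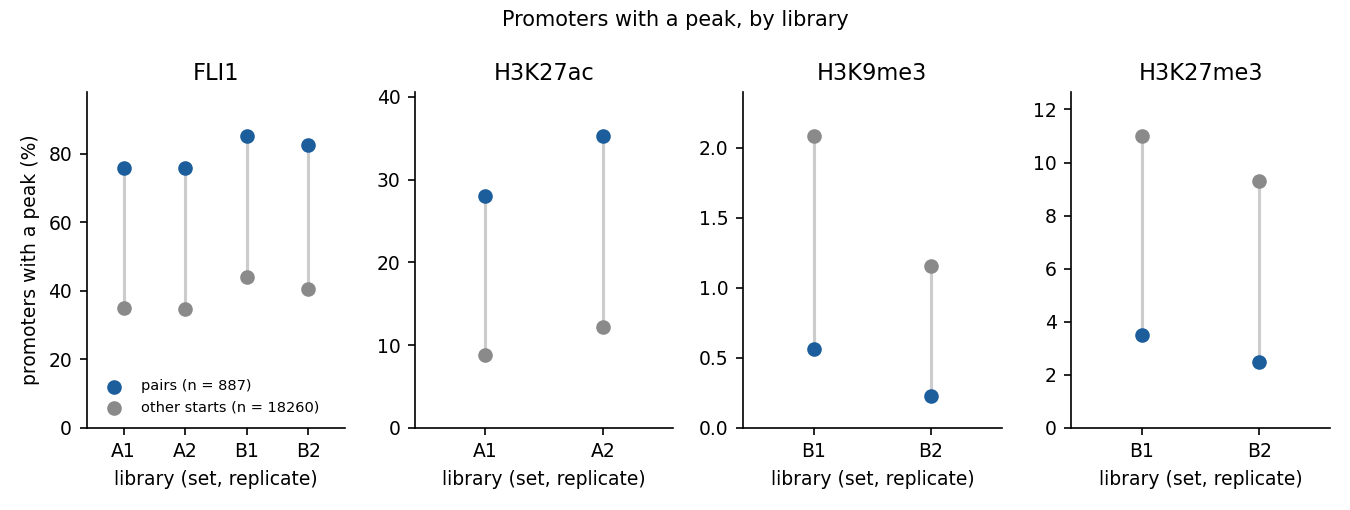
Share of promoters with a peak (%) in each library, for 887 bidirectional pairs (blue) and 18260 other protein-coding starts (grey); lines join the values of a library, and each panel has its own axis. Pairs lie above other starts in every FLI1 and H3K27ac library and below them in every H3K9me3 and H3K27me3 library.

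FLI1 was in all 4 lists at 602 pairs (67.9%), against 28.0% of other starts. It was in 3 lists at 85 pairs (9.58%), in 2 at 69 (7.78%) and in 1 at 33 (3.72%). At other starts these shares were 6.68%, 8.21% and 5.66% in the same order. No list held a peak at 98 pairs (11.0%), against 51.5% of other starts. Of the pairs with FLI1 in both libraries of 1 set and neither of the other, 47 (5.30%) were in set B and 8 (0.902%) in set A, close to the 5.74% and 1.17% of other starts. The mean share was 8.12 points lower in set A than in set B, and the exact permutation p of 0.33 is the smallest for 2 libraries against 2 (0.33 adjusted).

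Where a FLI1 peak was present, it was also stronger at pairs. The strength of a peak is given as the percentile of its deposited fold, the caller's enrichment over background, within its own list. The median percentile was 80.6 ± 2.80 (SD, n = 4) at pairs and 71.2 ± 2.83 at other starts, a difference of 9.41 ± 0.417 in the same direction in 4 of 4 libraries (exact sign-flip permutation, p = 0.13, adjusted 0.156). The median folds at pairs were 12.6 in A1, 12.5 in A2, 14.8 in B1 and 12.1 in B2. At other starts they were 9.82, 9.35, 11.9 and 10.2 in the same order. The strongest peak of each region was taken. Regions of pairs were wider, and the percentile difference was not matched for width or CpG ratio. With pairs at most 300 bp apart it was 8.19.

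The 5 pairs with the highest percentile of FLI1 fold, averaged over the 4 lists, join genes of varied function. The order differed between libraries: LONP1/CATSPERD, named after its values were seen, had the highest fold of all pairs in A1 (213.0) and in A2 (221.6) but 43.97 in B1 and 35.9 in B2, and was not among the 5. At ZNF558/MBD3L1, which encode a zinc finger protein and a relative of the methyl-CpG binding protein MBD3, the fold was 184.1 in A1, 221.2 in A2, 93.6 in B1 and 57.0 in B2. ARHGAP1 encodes a GTPase-activating protein, and ARHGAP1/ZNF408 had folds of 121.6, 112.6, 141.4 and 58.9 in the same order. MRPL27 is a mitochondrial ribosomal protein and EME1 a subunit of a DNA junction endonuclease; their folds were 136.7, 91.3, 86.3 and 64.3. PPIL3/NIF3L1 had folds of 104.2, 128.2, 60.2 and 54.8. SDF2/SUPT6H, the latter a transcription elongation factor, had 80.7, 97.0, 99.0 and 62.4. In 4 of these 5 pairs the highest value was over 100, and in every one the lowest was in B2, whose list had the fewest regions with 29339.

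The ETS word went with presence and with strength. Of the 168 pairs with CCGGAAGT in the region, 97.6% had FLI1 in A1, 95.8% in A2, 98.8% in B1 and 97.6% in B2. Of the 719 pairs without it, 70.7%, 71.2%, 82.1% and 79.1% did. The difference was 21.7 ± 4.87 points (SD, n = 4), positive in 4 of 4 libraries (exact sign-flip permutation, p = 0.13, adjusted 0.156). Pairs with 1 word numbered 145, and 97.1% ± 1.42 of them had FLI1. All 23 pairs with 2 or more words had FLI1 in all 4 lists. Their median fold percentile was 98.1, against 91.0 with 1 word and 75.9 with none. These 23 include SHC1/CKS1B, an adaptor of growth factor receptors and a regulator of cyclin-dependent kinases, with 3 words and folds of 130.5 in A1, 163.7 in A2, 56.8 in B1 and 42.3 in B2, and TRMT112/PRDX5 with 148.5, 136.1, 49.2 and 33.7; both were picked after their values were seen. Only 1 pair with the word, PAQR9/U2SURP, had FLI1 in no list.

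The word was not specific to pairs. At other starts 84.3% with the word and 35.4% without it had FLI1. Among starts with a CpG ratio of at least 0.6, each taken alone, FLI1 was found at 97.3% of paired starts with the word and 79.3% without, and at 89.4% and 55.2% of other starts. Paired starts without the word thus had FLI1 more often than other starts without it, also at high CpG content.

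**Figure D2:**
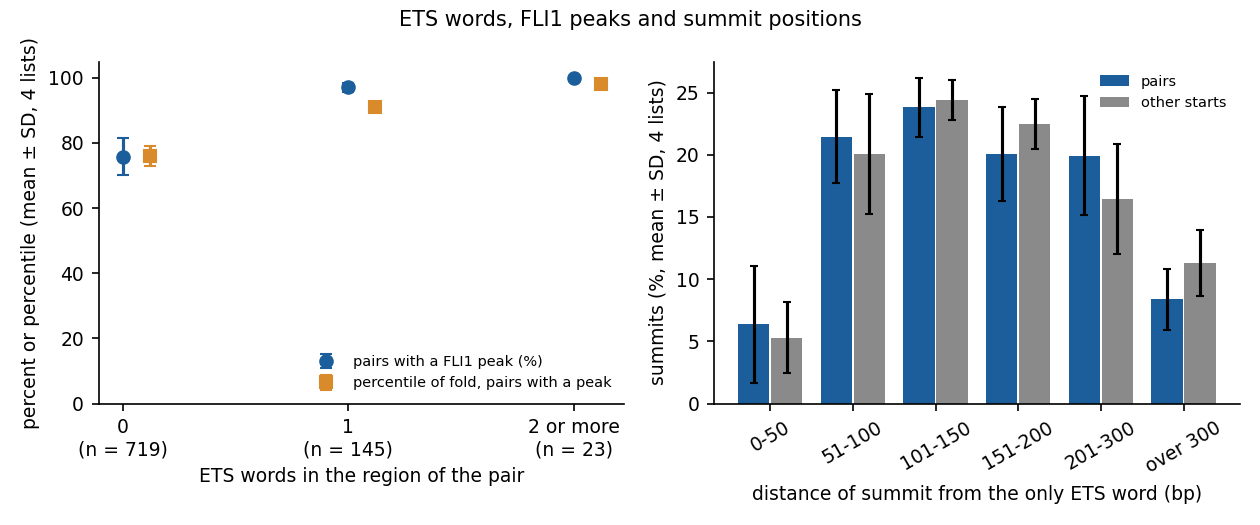
Left, share of pairs with a FLI1 peak (blue circles, %) and median percentile of the deposited fold where a peak was present (orange squares), by number of CCGGAAGT words; right, share of FLI1 summits by distance from the word, at promoters with exactly 1 word (bars, mean of 4 lists; error bars, SD). Presence went from 75.8% to 97.1% and 100% with 0, 1 and at least 2 words, and only 6.36% of summits lay within 50 bp of the word.

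The words lay close to the starts. In pairs with 1 word, its centre was a median of 20 bp from the nearer start, and 46.9% of the words lay between the starts, an interval that made up 13.1% of these regions on average. FLI1 was present at 96.0% ± 1.41 of the 68 pairs with the word between the starts and 98.1% ± 1.68 of the 77 with it past a start. In the 23 pairs with 2 or more, neighbouring words were 14 to 376 bp apart with a median of 64.5 bp, and 13 of the 24 distinct neighbours pointed the same way.

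The deposited summit, the position of highest signal in a peak, was seldom on the word. In pairs with 1 word, 6.36% ± 4.73 of summits (SD, n = 4) lay within 50 bp of its centre, 21.5% ± 3.75 over 50 and up to 100 bp away, 23.8% ± 2.39 over 100 and up to 150 bp and 20.1% ± 3.79 over 150 and up to 200 bp. Each of these classes covers about the same length. The share within 50 bp was the lowest of the 4 in the mean and ranged from 1.42% to 11.9% over the libraries. Other starts with 1 word gave 5.30% ± 2.86, 20.1% ± 4.83, 24.4% ± 1.61 and 22.5% ± 1.99, so the gap was not particular to pairs.

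Over all pairs, 19.0% ± 2.00 of FLI1 summits lay between the starts, which made up 15.1% of the region. In pairs over 200 bp apart 45.9% ± 2.73 did, against 27.5% of the region. Past the start of the plus-strand gene lay 46.6% ± 5.03 of summits, and past that of the minus-strand gene 31.3% ± 6.14. Coverage by FLI1 peaks, averaged over the 4 lists, was highest 100 bp to the plus side of the midpoint, at 69.3% of pairs, and 63.4% at the midpoint itself. Around other starts the highest value was 28.1%, 100 bp downstream of the start. That axis follows the strand of each gene, unlike the axis of pairs, so the 2 positions are not comparable. In each of the 4 libraries more summits lay past the plus-strand start than past the minus-strand start. Set against the single ETS word, summits lay on its higher-coordinate side in 55.3% of pairs in A1, 50.7% in A2, 66.4% in B1 and 68.1% in B2, and in 54.7%, 57.1%, 64.4% and 62.3% of other starts. The source of this lean was not tested.

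**Figure D3:**
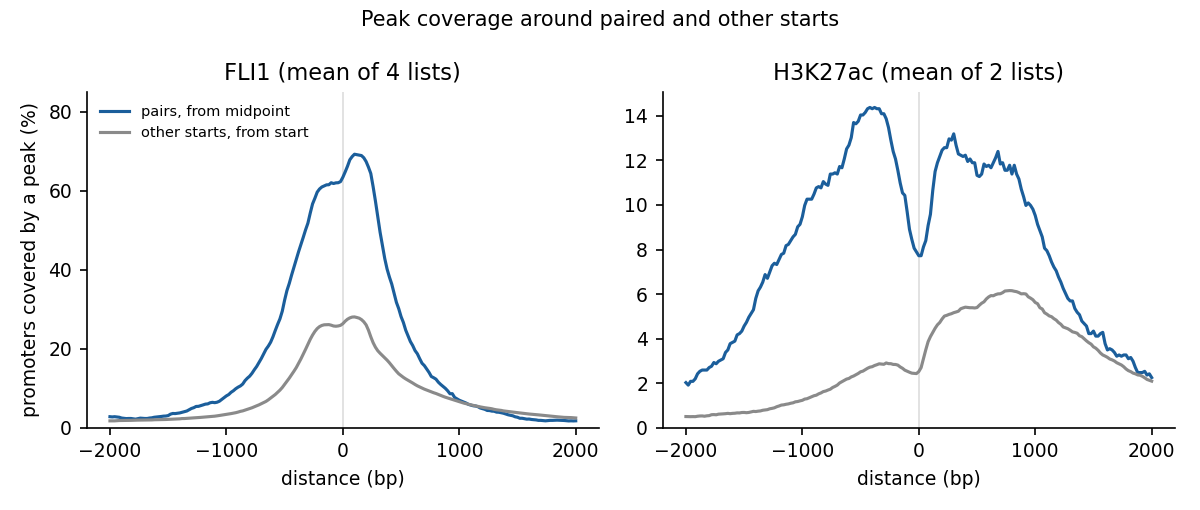
Share of promoters covered by a peak (%) at each distance (bp) from the midpoint of a pair (blue; positive is toward the plus-strand gene) or from another start (grey; positive is downstream), as the mean of the FLI1 lists (left) and the H3K27ac lists (right). FLI1 coverage peaks at 69.3% near the midpoint, and H3K27ac dips there to 7.72%.

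H3K27ac was more frequent at pairs in both libraries. It was found at 248 pairs (28.0%) in A1 and 313 (35.3%) in A2, against 8.81% and 12.2% of other starts. The mean difference was 21.1 ± 2.78 points (SD, n = 2). An exact sign-flip permutation over 2 libraries cannot go below p = 0.5. With weighting for CpG ratio it was 14.5 points, and with peaks of −log10 q of at least 5 only it was 10.6. Both lists held a peak at 195 pairs (22.0%), against 5.97% of other starts. A pair's region holds the downstream sides of 2 starts, whereas the window of another start holds only 1. Mean coverage by H3K27ac peaks was 14.0% of pairs at -500 bp from the midpoint and 11.3% at +500 bp. Around other starts 5.40% were covered 500 bp downstream and 2.51% 500 bp upstream. The part of the 2 downstream sides in the difference was not tested.

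Within the 500 bp past each start, the mark mostly lay on 1 side of the pair. Peaks wholly beyond that were not counted, although coverage was still 9.47% at -1000 bp from the midpoint and 9.53% at +1000 bp. Of the pairs with a peak in A1, 77 had it past both starts (31.0%), 95 past the minus-strand start only and 76 past the plus-strand start only. In A2 the numbers were 91 (29.1%), 116 and 104, and 2 lay between the starts only. Coverage was highest at -420 bp, with 14.4% of pairs, and 7.72% at the midpoint. At other starts it was highest 780 bp downstream with 6.16%, and 2.52% at the start.

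The highest percentiles of H3K27ac fold, averaged over both lists, were at GLMN/RPAP2, TMEM258/FEN1, UROS/BCCIP and TMEM68/TGS1, with TMEM258/FADS2 sharing the peaks of TMEM258/FEN1. At GLMN/RPAP2, glomulin and a phosphatase of RNA polymerase II, the H3K27ac fold was 9.56 in A1 and 8.72 in A2, and the FLI1 fold was 10.4, 10.5, 12.3 and 9.80 in A1, A2, B1 and B2. At TMEM258/FEN1 H3K27ac had 8.89 and 8.97 and FLI1 had 44.8, 59.5, 65.6 and 26.0. UROS makes the haem precursor uroporphyrinogen III, and UROS/BCCIP had 8.08 and 9.59 for H3K27ac with FLI1 at 15.6, 10.5, 24.5 and 8.79. These 5 pairs all had FLI1 in 4 lists. So did 163 (83.6%) of the 195 pairs with H3K27ac in both lists, from which they were picked, and 67.9% of all pairs.

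H3K27ac went with FLI1 at the same pairs. Counting H3K27ac in both lists, pairs with FLI1 had it in 25.9% of cases for FLI1 A1, 25.3% for A2, 24.7% for B1 and 25.2% for B2. Pairs without FLI1 had it in 9.77%, 11.7%, 6.11% and 6.49%. The difference was 16.8 ± 2.45 points, positive in 4 of 4 libraries (exact sign-flip permutation, p = 0.13, adjusted 0.156); the 4 values share the same H3K27ac lists. It fell to 2.15 points with peaks of −log10 q of at least 5, and was 28.4 with H3K27ac in either list and 25.2 without H3K27ac A1. Of the 602 pairs with FLI1 in 4 lists 163 (27.1%) had H3K27ac in both, against 14.2% of other such starts, while 305 (50.7%) had it in neither list, against 64.9% of other such starts. Of the 98 pairs without FLI1, 4 (4.08%) had H3K27ac in both, against 0.671% of other starts without FLI1: UIMC1/ZNF346, ENSG00000283128/RBM33, NDUFB1/CPSF2 and GLOD4/MRM3. Their starts were 45 to 63 bp apart and their H3K27ac folds ran from 4.49 to 8.91.

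H3K27me3 was rare at pairs. It was found at 31 pairs (3.49%) in B1 and 22 (2.48%) in B2, against 11.0% and 9.31% of other starts, a mean difference of -7.17 points with p = 0.5 as the smallest possible in an exact sign-flip permutation. With weighting for CpG ratio the difference was -8.83, and with −log10 q of at least 5 it was -3.58. Both lists held it at 21 pairs (2.37%), against 8.93% of other starts. Of these 21, 18 had FLI1 in no list, 2 in 1 list and 1 in all 4. H3K27me3 was thus at 18.4% of the 98 pairs without FLI1, near the 16.1% of other starts without FLI1.

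The pairs with the widest coverage join genes of varied function. HES2 is a relative of the Notch target HES1 and ESPN an actin bundler of hair cells; H3K27me3 covered the whole region in both lists, at folds of 7.85 in B1 and 6.90 in B2. FOXL2, a transcription factor of the ovary, and FOXL2NB were covered whole at 9.51 and 7.23. HPCAL4/PPIE, ILDR2/MAEL and SNCB/EIF4E1B were covered whole too, as were others such as TMEM64/NECAB1 and TRPC5/RTL4. The pairs named next, up to DUOX2/DUOXA2, were picked after their values were seen. LMF1/SOX8, SOX18/TCEA2 and OSTM1/NR2E1 hold further developmental regulators and were also covered whole. GABRA4/GABRB1, covered to 92.4% on average, encode 2 subunits of the GABA-A receptor. DUOX2/DUOXA2, covered whole, encode an oxidase and its maturation factor. In these 2 pairs both genes act together, whereas in LMF1/SOX8 a lipase maturation factor sits beside a developmental regulator. SYMPK/FOXA3 was the exception with FLI1 in all 4 lists, at folds of 10.1, 8.92, 22.996 and 9.90. There H3K27me3 covered 15.4% of the region on average, at folds of 5.31 and 4.98.

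H3K9me3 was rarer still, at 5 pairs (0.564%) in B1 and 2 (0.225%) in B2, against 2.09% and 1.16% of other starts. The difference was -1.23 points (p = 0.5, the smallest possible in an exact sign-flip permutation), and -0.365 with −log10 q of at least 5. Both lists held it at 2 pairs (0.225%), against 1.02% of other starts. These were SOX30/C5orf52, at folds of 5.22 in B1 and 4.64 in B2, and H2AC14/H2BC14 at 5.47 and 5.17. SOX30 is a factor of spermatogenesis, and its pair also had FLI1 in 3 lists at folds of 5.08 in A2, 5.06 in B1 and 9.50 in B2. H3K27ac and H3K27me3, each in both lists, occurred together at 0 pairs and at 0 of the 18260 other starts. No peak in any of the 10 lists was found at 63 pairs (7.10%), against 38.3% of other starts.

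FLI1 was more frequent where the partner was protein-coding than where it was an lncRNA, and least frequent with no divergent partner. Over single starts, 79.2% ± 4.74 (SD, n = 4) of the 1710 with a coding partner had FLI1, against 63.4% ± 5.92 of the 1415 with an lncRNA partner and 36.4% ± 4.38 of the 16845 with neither. H3K27ac followed the same order, with 29.1%, 17.9% and 9.88%, and H3K27me3 was lowest with a coding partner, at 2.89% against 9.05% and 10.3%. The ETS word was in 11.4% of starts with an lncRNA partner and 5.88% of those with neither.

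**Figure D4:**
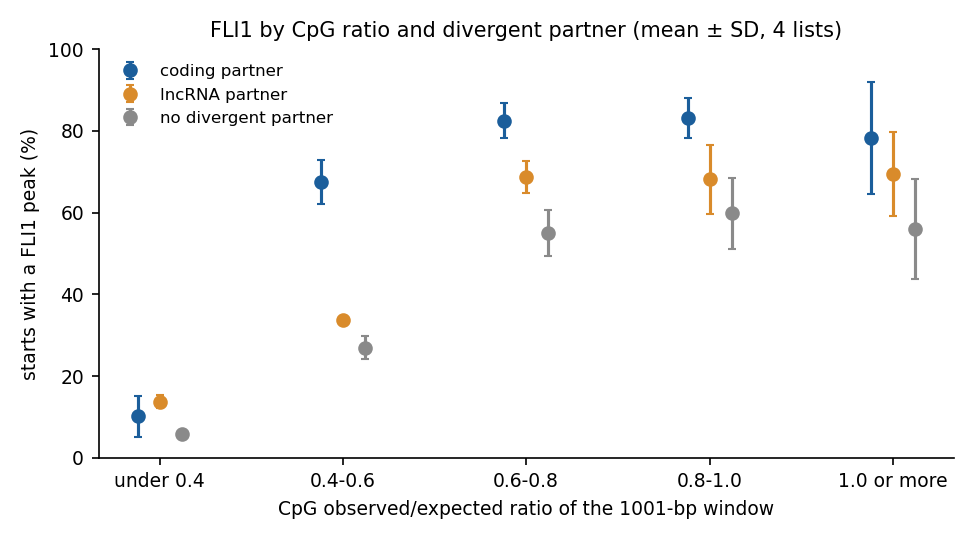
Share of single starts with a FLI1 peak (%, mean of 4 lists; error bars, SD) by CpG observed/expected ratio, for starts with a protein-coding partner (blue), an lncRNA partner (orange) or neither (grey). The coding-partner class is highest in every bin from 0.4 upward, and under 0.4 all 3 classes are below 15%.

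Starts of low CpG content seldom had FLI1 in any class, and above that the paired starts had the highest share. With a CpG ratio under 0.4, FLI1 was at 10.2% of the 59 paired starts, 13.8% of the 89 starts with an lncRNA partner and 5.88% of those with neither. From 0.4 to 0.6 the shares were 67.5%, 33.8% and 26.98%, and from 0.6 to 0.8 they were 82.5%, 68.8% and 55.1%. Above 0.8 they changed little, with 83.1%, 68.1% and 59.9% up to 1.0 and 78.3%, 69.5% and 56.0% beyond. Among pairs without FLI1, 35 of 98 had a CpG ratio under 0.6, against 28 of the 602 with FLI1 in all 4 lists. The ETS word was in the region of 1.02% of the former and 26.2% of the latter.

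The distance between the starts bore on FLI1 in no simple order. FLI1 was at 76.4% ± 6.01 of the 342 pairs at most 100 bp apart and 76.9% ± 4.36 of the 253 pairs beyond that and up to 200 bp. The next classes, up to 300, 500 and 1000 bp, held 122, 94 and 76 pairs and had FLI1 at 90.4% ± 3.81, 87.0% ± 3.82 and 79.9% ± 5.08. Regions of distant pairs are wider, and the part of region width in these shares was not tested. The ETS word was most frequent in the closest class, at 23.7%, and was in 18.0% of the class from 200 to 300 bp. H3K27ac was at 33.9%, 31.4%, 33.6%, 31.4% and 19.1% of the classes from near to far. Just outside the rule, 41 pairs over 1000 and up to 1500 bp apart had FLI1 in 76.8% and H3K27ac in 30.5%. Another 323 pairs whose genes overlapped at their starts by up to 500 bp had FLI1 in 78.3% and H3K27ac in 28.8%. Genes of these outside pairs counted as other starts unless they also belonged to a pair within the rule.

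Pairs often cited as bidirectional promoters were taken from a list of 21, of which 12 met the rule. FLI1 was in all 4 lists at 9 of the 12, H3K27ac in both lists at 3, and H3K27me3 in both at 0, beside 67.9%, 22.0% and 2.37% of all pairs, so these counts show nothing particular to the often cited pairs. NPAT/ATM joins a coactivator of histone genes and a kinase of the DNA damage response; its FLI1 fold was 25.8 in A1, 20.6 in A2, 27.3 in B1 and 18.6 in B2, with H3K27ac at 7.17 and 6.13. PSMB1/TBP, a proteasome subunit and the TATA-binding protein, had FLI1 at 46.2, 47.5, 37.6 and 27.1 and H3K27ac at 6.87 and 4.50. SIRT3/PSMD13 had FLI1 at 28.8, 31.2, 39.0 and 22.96 with no H3K27ac peak, and so did PPAT/PAICS, whose genes make purines, at 23.7, 22.6, 18.3 and 11.6, and TCP1/MRPL18 at 22.1, 29.1, 16.9 and 16.2. TK1/AFMID was weaker, at 7.78, 6.43, 15.0 and 11.7. PRKDC/MCM4 had 26.1 and 26.6 in set A but 6.45 and 8.46 in set B. PURG/WRN, the latter a DNA helicase, had no peak in A1 and 6.46, 6.32 and 8.52 in the others. COL4A4/COL4A3 and COL4A6/COL4A5, the pairs of type IV collagen genes, had no FLI1 peak in any list, and COL4A6/COL4A5 had H3K27me3 in B1 alone, at a fold of 4.18.

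The share of genes in pairs differed from group to group, beside 8.56% of all protein-coding genes. DNA replication and repair genes were in pairs in 23.9% of 117 cases, genes of the respiratory chain and mitochondrial import in 23.2% of 138, mitochondrial ribosomal genes in 21.8% of 78 and replication-dependent histone genes in 38.6% of 70. Cytosolic ribosomal genes were in pairs in 14.1% of 85 cases, proteasome genes in 12.5% of 48, zinc finger genes in 6.60% of 515 and developmental factors in 3.51% of 171. Type IV collagen genes were in pairs in 4 of 6 cases. Within a group, the members of a pair share 1 region, so counts of genes are not counts of independent regions, and no difference between groups was tested.

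FLI1 was at the starts of 86.8% ± 5.63 of the 17 paired mitochondrial ribosomal genes and 75.8% ± 4.31 of the 61 unpaired ones. Of the 17, 12 (70.6%) had FLI1 in all 4 lists and 5 (29.4%) had H3K27ac in both, beside 1152 (67.4%) and 342 of all 1710 starts in pairs; for the unpaired ones the shares were 55.7% and 32.8%. MRPL46/MRPS11 joins 2 of them, at FLI1 folds of 7.14, 6.22, 9.68 and 13.2. For DNA replication and repair the shares were 83.9% ± 10.7 of 28 and 64.6% ± 5.07 of 89, with FLI1 in all 4 lists at 67.9% of the paired genes, about the share of all starts in pairs. BRCA1/NBR1 had folds of 9.52, 9.60, 7.72 and 6.43. RAD51D/FNDC8 was the exception in this group, with FLI1 in no list and a CpG ratio of 0.137. For zinc fingers the shares were 86.0% ± 3.70 of 34 and 58.2% ± 6.66 of 481. H3K9me3 in both lists was found at 44 of the 481 unpaired zinc finger starts (9.15%) and at 0 of the 34 paired ones, beside 1.02% of all other starts and 0.234% of all starts in pairs.

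The other groups were less uniform. Among genes of the respiratory chain and mitochondrial import, 78.9% ± 8.61 of 32 paired and 65.8% ± 4.03 of 106 unpaired starts had FLI1, and COX16/ADAM21, ATP5MJ/TDRD9 and NDUFB1/CPSF2 had it in no list. TIMM8B/SDHD joins an import protein and a subunit of succinate dehydrogenase and had folds of 19.5, 18.2, 14.5 and 32.2. Cytosolic ribosomal genes had FLI1 at 85.4% ± 10.5 of 12 and 73.6% ± 3.24 of 73. The proteasome went the other way, with 62.5% ± 16.0 of 6 paired and 78.0% ± 3.57 of 42 unpaired starts. With so few paired genes, PSMA1 of PSMA1/PDE3B weighs heavily: it had FLI1 in no list and H3K27me3 in both. Whether the outermost start is the one PSMA1 uses in these cells was not tested. Histone genes had FLI1 at 68.5% ± 4.78 of 27 paired and 55.2% ± 15.9 of 43 unpaired starts. H3K27ac in both lists was at 0 of the 27 paired and 3 of the 43 unpaired histone starts, beside 342 of all 1710 starts in pairs. Of the 6 paired developmental factors, a group set by gene symbol, 4 had H3K27me3 in both lists and 3 had FLI1 in none. Over all starts in pairs these shares were 2.40% and 11.5%. The 4 include FOXA3, whose pair had 15.4% of its region covered. Of the 165 unpaired developmental factors, 61 had H3K27me3 in both lists and 98 had FLI1 in none, beside 8.93% and 51.5% of all other starts.

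**Figure D5:**
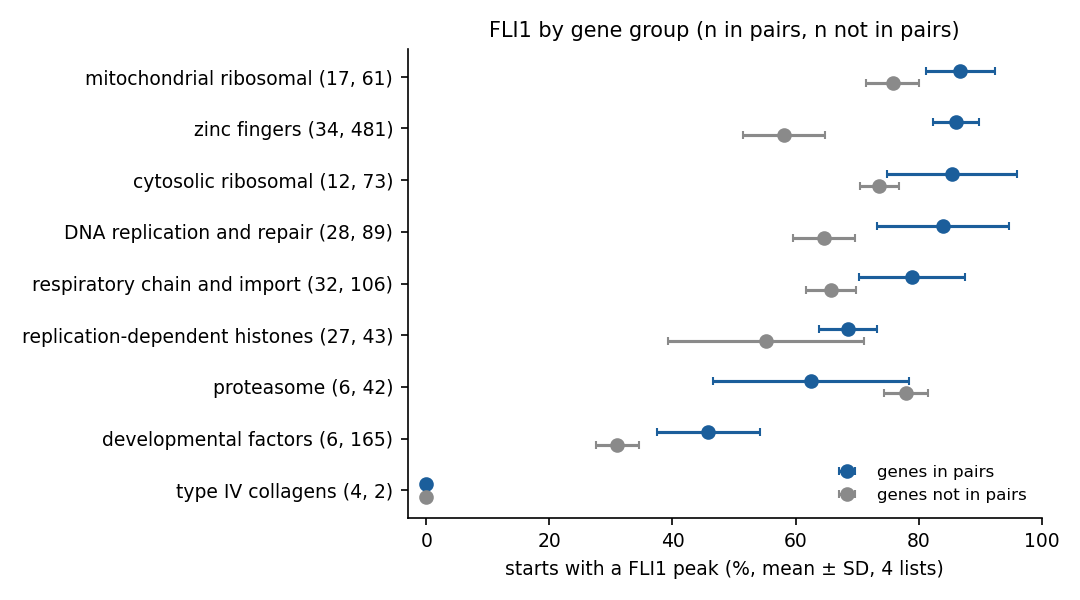
Share of starts with a FLI1 peak (%, mean of 4 lists; error bars, SD) for 9 gene groups, for genes in bidirectional pairs (blue) and not in pairs (grey), with the number of each in parentheses. Paired genes have the higher mean in 7 groups, the proteasome with only 6 paired genes goes the other way, and type IV collagen genes have no FLI1 peak in either class.

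Pairs bound in 1 set only differed from pair to pair. THYN1/ACAD8 had FLI1 folds of 34.9 in A1 and 29.8 in A2 and no peak in set B. BOLA2/SLX1B had 24.1 and 19.9 in set A only; it lies in a segmental duplication, where reads can map to more than 1 copy. RWDD4/TRAPPC11 had 24.1 in B1 and 15.6 in B2 and no peak in set A, and GAK/TMEM175 had 24.7 and 11.2. These folds were not small, and what separates the sets was not tested.

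The lists give no read totals, so the depth behind a peak or a missing peak is unknown, and no peak in a list does not show that a protein or mark is absent. The FLI1 lists held 29339 to 40590 regions and the H3K27ac lists 10219 and 17366. As a check on the cell line, FLI1 regions lay within 10 kb of NR0B1, NKX2-2 and CCND1, genes known to be bound in Ewing sarcoma, in all 4 libraries, with 5 to 16 regions each. Whether a FLI1 peak holds the fusion or another protein the antibody binds was not tested.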

How the data were processed

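The deposited files are 10 peak lists, 1 for each antibody library. Per the submitters' processing notes, the tools were cutadapt 4.4, Bowtie2, Picard 2.17.11 and MACS2 2.1.1 and the build was GRCh38/hg38; other settings are not given in the sources used here. A peak's fold, the caller's enrichment of signal over background, is the value deposited by the authors. The deposited −log10 p-value and −log10 q-value are the caller's too. The score column and the summit offset are deposited too, and the score was not used. Depth per sample is unknown.

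Overlapping peaks of a list were merged with the values of the most significant. Presence needed 1 shared base. Folds were ranked inside their own list and otherwise quoted at named pairs. Differences were compared within each library by exact sign-flip permutation, two-sided. The rule for named pairs took a list of 21 often cited pairs. It added the 5 with the highest mean percentile of fold for FLI1 and for H3K27ac. Also taken were up to 5 most covered by H3K27me3 and by H3K9me3, and up to 3 bound in 1 set only. Ties were broken by chromosome and position. The 5 taken for H3K27me3 are thus the first in that order among the pairs covered whole. The members, gene lists and words were chosen with earlier results of these data known. Word position, word spacing and summit-to-word distance were added after the data were seen. The overlap and pair search were tested on simulated intervals. Python 3.11.15 with numpy 2.4.6, pandas 2.3.3 and matplotlib 3.10.9 was used. Spike-in counts and the IgG libraries were not analysed here.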

Additional observations from a re-analysis of the deposited data

Results flagged for a closer look

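Of 12 values tested for a library that stands apart from the other 3, 1 was flagged, and chance flags about 1 in 20. Among pairs with FLI1, the share with H3K27me3 in both lists was 0.397% for FLI1 B1, against 0.149% for A1, 0.149% for A2 and 0.136% for B2. The difference rests on very few pairs, of which SYMPK/FOXA3 is in all 4 FLI1 lists.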

How the results depend on the processing

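No alternative reversed the direction of a difference, and no count of pairs moved by more than 1.5 times. The 2 choices added after seeing the data were to keep 1 pair per merged region, which gave a FLI1 difference of 41.1 points, and the comparison with lncRNA partners. The FLI1 difference ran from 41.1 to 41.6 points with 1 library left out. With the replicate block, which averages the same-numbered libraries of sets A and B, it was 41.35 points (exact sign-flip permutation, p = 0.5, the smallest for 2 blocks), and the labels do not say what a shared number means. The count of pairs with FLI1 in all lists used ran from 604 to 637 with 1 library left out, and that with FLI1 in none from 102 to 113. A stricter q threshold lowered the H3K27ac, H3K27me3 and H3K9me3 differences by over 1.5 times; the cause was not tested. Unknown depth limits every statement on missing peaks.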
